A study of Homo sapiens with 6 samples.

Results

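Adrenomedullin and the genes of its receptors were followed in A2780 cells, a human ovarian cancer cell line, with and without recombinant human CRMP2 (r-CRMP2). The 7 genes are the ligands ADM and ADM2, the receptor CALCRL, its accessory subunits RAMP1, RAMP2 and RAMP3, and the scavenger receptor ACKR3. They were taken by name from the 44591 genes listed for each library, and each name matched 1 row. The study compared 3 untreated libraries with 3 libraries of cells given 40 ng/ml r-CRMP2 for 48 h. All cells were wild type and were grown in DMEM with serum. Polyadenylated RNA was sequenced. The model is a single cell line, and nothing in the labels says that the 3 libraries of a group came from separate cultures. The p-values below therefore measure only the spread between these libraries, which may be technical.

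Adrenomedullin is a secreted peptide that widens vessels and acts on endothelium, and ADM is a well-known target of the hypoxia-inducible factors. The peptide is cut from a longer precursor and must be amidated at its end to be active. It is read by the G protein-coupled receptor CALCRL, which reaches the cell surface and selects its ligand only together with a RAMP protein: RAMP1 gives a receptor for calcitonin gene-related peptide, and RAMP2 and RAMP3 give receptors for adrenomedullin. The receptor acts mainly through the stimulatory G protein and cyclic AMP. ACKR3, also called CXCR7, takes up the chemokines CXCL11 and CXCL12 and also adrenomedullin, and recruits arrestins in place of G proteins.

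The ligands moved apart in r-CRMP2-treated cells, and the receptor for them was all but unread. ADM was about 13.0-fold higher, ACKR3 was 4.44-fold higher and ADM2 was 4.24-fold lower in the r-CRMP2 group, while CALCRL, RAMP1, RAMP2 and RAMP3 had at most 4 counts in any library. The genes were chosen by name with their counts in this same contrast already known, the rise of ADM among them, so their changes are given as a description with no test. The 3 genes that passed the low-count filter of edgeR, ADM, ADM2 and ACKR3, all lay past both thresholds (adjusted p of 0.05 and a change of 1 on the log2 scale), and so did 14.0% of all 16222 genes tested. The groups did not overlap for any of these 3 genes, nor for 64.2% of all genes tested: ADM and ACKR3 were higher with no overlap, as were 30.9% of all genes tested, and ADM2 was lower with no overlap, as were 33.3%. Nothing is read from either count, because the choice of genes used the same contrast. In bulk RNA, fewer cells with a transcript and less of it per cell cannot be told apart.

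The libraries held between 21888530 and 25711353 counts. The third r-CRMP2 library listed 22438 genes with at least 1 count, and the other 5 libraries between 25152 and 26302. It also had fewer genes at exactly 1 count, 2125 against 3396 to 3627, while genes with more than 10 counts numbered 15502 there and between 15247 and 16368 in the others. Whether low values were lost in that library was not tested, so its zeros are not read as limits, and levels that rest on single counts are given with and without it. Levels below are CPM, counts scaled to a common library total with TMM factors, unless TPM is named. TPM divides by gene length and is scaled within each library with no TMM factor. A difference between the groups in TPM therefore need not equal the fold change given. The standard error (SE) of a log2 fold change was computed from how log2 CPM varied among the replicates. It was computed apart from the edgeR fit that gave the fold change and adjusted p, so at low counts the SE and the adjusted p need not match.

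**Figure D1:**
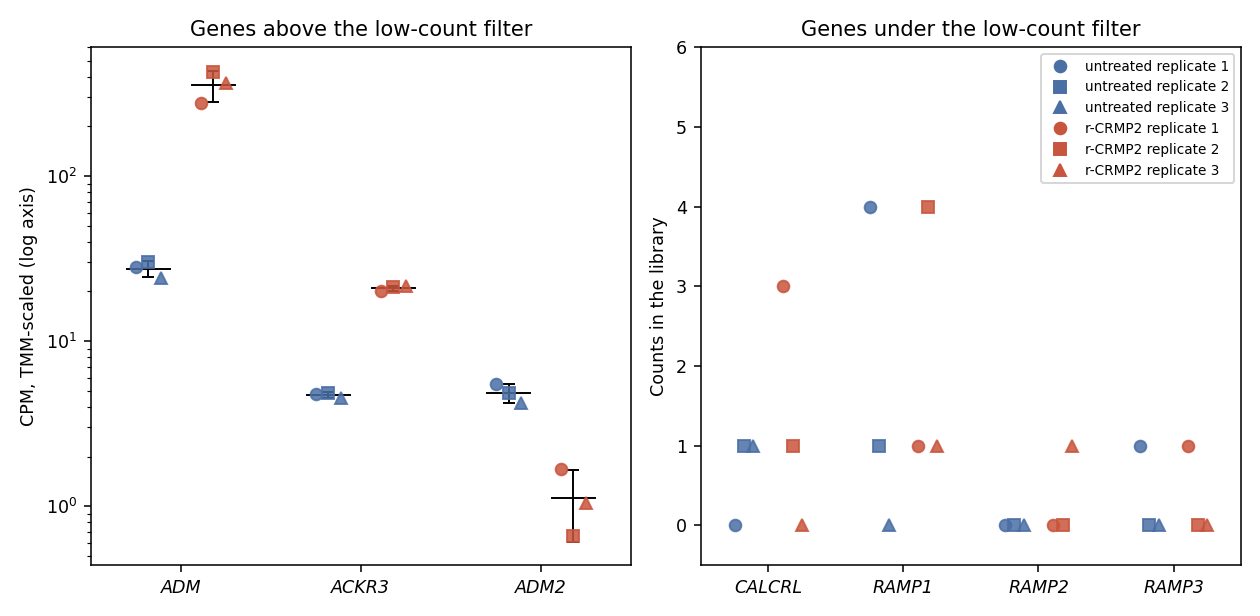
Levels of the 7 genes in each library. Left, TMM-scaled CPM on a log axis for the 3 genes above the low-count filter, with the mean and SD of each group (n = 3) in black. Right, raw counts per library for the 4 genes under the filter. ADM and ACKR3 sit higher and ADM2 lower in all 3 r-CRMP2 libraries, and no library holds more than 4 counts of CALCRL or a RAMP gene.

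ADM (chromosome 11, 10326527 to 10328949 on the plus strand, in the deposited hg19 coordinates) had 28.3, 30.2 and 24.1 CPM in untreated replicates 1, 2 and 3. It had 275, 427 and 367 CPM in r-CRMP2 replicates 1, 2 and 3. Every treated library was above every untreated one, and the first r-CRMP2 library was the lowest of the treated libraries. The group means were 27.5 ± 3.08 and 356 ± 76.2 CPM (SD, n = 3 each), which is a log2 fold change of 3.70 (SE 0.21). ADM had the 21st largest log2 fold change of the 16222 genes tested. Without the third r-CRMP2 library, the log2 fold change of ADM was 3.68. In TPM, ADM went from rank 3086 to 3774 among the 19233 protein-coding genes in the untreated libraries to rank 260 to 370 in the r-CRMP2 libraries.

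ADM2 (chromosome 22, 50920153 to 50924866 on the plus strand), whose product is also called intermedin and uses the same receptors, went the other way. It had 5.47, 4.85 and 4.20 CPM in untreated replicates 1, 2 and 3, from 152, 119 and 115 counts. It had 1.69, 0.657 and 1.04 CPM in r-CRMP2 replicates 1, 2 and 3, from 36, 13 and 24 counts. All 3 treated libraries were below all untreated ones, at counts low enough that counting error is part of their spread. The log2 fold change of ADM2 was -2.09 (SE 0.38), the 212th lowest of the genes tested. Without the third r-CRMP2 library, it was -2.02.

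The sequences before the starts of both ligand genes are shown because the ligands moved in opposite directions. Each line gives the 250 bases upstream of the RefSeq gene start, 5′ to 3′ on the plus strand, from GRCh38.p14 (chr11:10304823-10305072 for ADM and chr22:50481293-50481542 for ADM2). Capitals mark GCGTG, and ACGTG was searched as well, each on both strands. These are the core letters of the hypoxia response element. Matches on opposite strands can overlap, as in CACGTG.
ADM: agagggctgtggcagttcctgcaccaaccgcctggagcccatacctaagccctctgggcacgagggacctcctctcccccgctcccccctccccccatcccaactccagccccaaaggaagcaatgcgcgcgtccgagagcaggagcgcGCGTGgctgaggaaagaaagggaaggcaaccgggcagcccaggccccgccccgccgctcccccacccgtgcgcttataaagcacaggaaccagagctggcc
ADM2: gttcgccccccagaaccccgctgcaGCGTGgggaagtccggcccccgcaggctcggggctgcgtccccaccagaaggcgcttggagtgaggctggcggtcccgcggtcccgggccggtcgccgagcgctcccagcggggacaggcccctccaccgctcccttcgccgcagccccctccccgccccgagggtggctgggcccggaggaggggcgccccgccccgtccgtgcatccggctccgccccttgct

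Each ligand promoter held 1 match, GCGTG, which began 101 bases before the start in ADM and 225 bases before it in ADM2. The motif was thus present before both genes. Whether either match bears on the change of its gene was not tested, and bases outside these windows were not searched. GCGTG was found in 32.2% of 35116 RefSeq promoter windows of the same length, ACGTG in 18.5% and either of them in 43.2%. Of the 7 genes, 4 were found in the promoter table: ADM, ADM2, RAMP3, with 1 GCGTG match, and CALCRL, with no match to these letters. The window of ADM had 68.0% G and C, that of ADM2 78.8%, that of RAMP3 75.6% and that of CALCRL 44.0%, against a median of 58.0% over all windows.

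CALCRL (chromosome 2, 188206690 to 188313021 on the minus strand), the receptor that adrenomedullin needs, had 0, 1 and 1 counts in untreated replicates 1, 2 and 3. It had 3, 1 and 0 counts in r-CRMP2 replicates 1, 2 and 3. This was 6 of the 143167481 counts in all libraries, or 0.0419 CPM (exact 95% Poisson interval 0.0154 to 0.0912, relative to the total counts and covering counting error only). Without the third r-CRMP2 library it was 6 of 117456128 counts, or 0.0511 CPM (0.0187 to 0.111). The groups overlapped, and both were at a level where no fold change can be given. At a floor of 3 counts, the level of CALCRL that could have gone unseen was between 0.042 and 0.049 TPM in the 5 libraries other than the third r-CRMP2 one.

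RAMP1 (chromosome 2, 238768187 to 238820759) had 4, 1 and 0 counts in untreated and 1, 4 and 1 counts in r-CRMP2 replicates 1, 2 and 3. RAMP2 (chromosome 17, 40913212 to 40915059) was at 0 in 5 of the 6 libraries and had 1 count in the third r-CRMP2 library. RAMP3 (chromosome 7, 45197367 to 45223849) had 1 count in the first library of each group and 0 in the other 4 libraries. RAMP1 thus took 11 of the 14 counts of RAMP genes (78.6%, exact 95% binomial interval 49.2% to 95.3%, covering counting error only and taking reads as independent), or 80.4% after division by gene length. Without the third r-CRMP2 library it took 10 of 12 (83.3%, 51.6% to 97.9%), and RAMP2 was at 0 in all 5 libraries left. RAMP2 and RAMP3, the partners in the adrenomedullin receptors, had 3 counts between them over all 6 libraries. CALCRL and the RAMP genes together had 20 counts in the 6 libraries, and 18 without the third r-CRMP2 library. In the 5 libraries other than the third r-CRMP2 one, a count of 0 allows up to 0.118 to 0.137 CPM, here taken on the raw library total with no TMM factor. A difference between the groups was not detectable at this depth.

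CALCRL and RAMP2 are typical of endothelium, so endothelial genes were read beside them. Of 6 endothelial markers (PECAM1, CDH5, VWF, KDR, TEK and CLDN5), VWF, KDR and CLDN5 were under 1 CPM in every library, the last 2 with at most 5 counts in any of them. The 6 markers summed to between 7.77 and 8.48 CPM in untreated libraries and between 2.53 and 3.48 CPM in r-CRMP2 libraries. Most of that difference was CDH5, which encodes VE-cadherin, at means of 5.29 CPM in untreated and 1.35 CPM in r-CRMP2 libraries. CDH5 fell by 1.96 on the log2 scale (SE 0.15), with an adjusted p of 8.48e-08 in the edgeR test. All treated libraries were below all untreated ones, as for 33.3% of all genes tested. It was downregulated past both thresholds, as were 8.86% of all genes tested. For each of the other markers the groups overlapped, and none of the other 3 tested passed both thresholds. PECAM1 had 29, 20 and 17 counts in untreated and 3, 0 and 17 in r-CRMP2 replicates 1, 2 and 3. Its log2 fold change was -1.41 (SE 0.98), with an adjusted p of 0.0515 in the edgeR test. KDR and CLDN5 were under the filter and not tested.

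Annotated neighbours bear on these counts. The antisense gene ENSG00000224063.1 spans the whole of CALCRL on the other strand and had between 6 and 25 counts in a library. RAMP2 shares 64 bases with RAMP2-AS1, which had at most 3 counts. The library kit does not mark strand, so reads in such overlaps cannot be assigned to 1 gene with certainty. ADM overlapped no listed gene. Its nearest neighbours, chosen after their values were seen, were CAND1.11, which starts 911 bases after its end, with 6 to 23 counts, and ENSG00000254554.1, which lies 1276 bases before it, with 7 to 14 counts. Neither passed the edgeR test (adjusted p = 0.72 and 0.219).

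ACKR3 (chromosome 2, 237478380 to 237490997 on the plus strand) was the single receptor of the set with more than a few counts. It had 4.78, 4.85 and 4.50 CPM in untreated replicates 1, 2 and 3, and 19.99, 21.3 and 21.4 CPM in r-CRMP2 replicates 1, 2 and 3. The groups were far apart and the libraries of each group lay close together. The means were 4.71 ± 0.188 and 20.9 ± 0.791 CPM (SD, n = 3 each), which is a log2 fold change of 2.15 (SE 0.05). Without the third r-CRMP2 library, it was 2.14. This was the 151st largest of the genes tested.

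**Figure D2:**
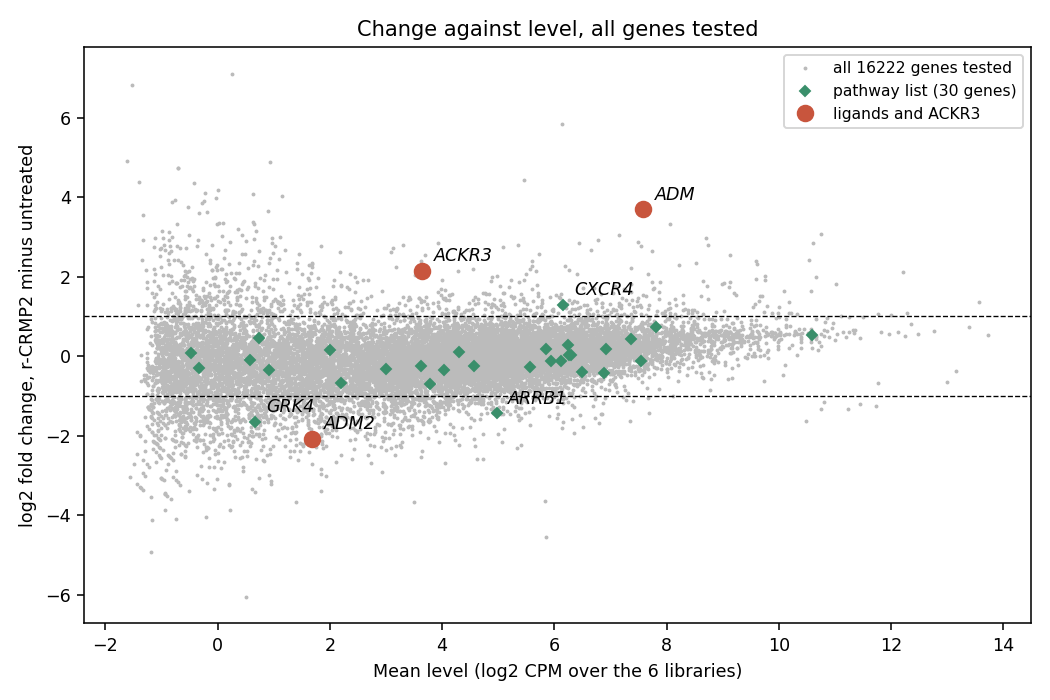
Log2 fold change (r-CRMP2 minus untreated) against mean log2 CPM for the 16222 genes tested by edgeR (grey). Red circles are ADM, ACKR3 and ADM2, green diamonds are the 30 pathway genes tested, and dashed lines mark a log2 fold change of 1 in either direction. ADM stands above nearly all genes of its level at 3.70, while ADM2 lies at -2.09 among genes of low level.

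Levels of different genes were compared per length, as TPM. In untreated cells, ADM was at 42.2 ± 4.86 TPM, ACKR3 at 5.46 ± 0.230 TPM and ADM2 at 2.92 ± 0.351 TPM (SD, n = 3). The order was the same in every untreated library, with ADM between 7.10 and 8.22 times ACKR3, and ACKR3 between 1.68 and 2.05 times ADM2. In r-CRMP2-treated cells, ADM was at 433 ± 74.6 TPM, ACKR3 at 19.3 ± 0.653 TPM and ADM2 at 0.552 ± 0.275 TPM (SD, n = 3). The order of the levels stayed the same and the steps between them widened. ADM was between 13.1 and 15.8 times ADM2 in untreated libraries and between 414 and 1646 times in r-CRMP2 libraries, where ADM2 rests on 13 to 36 counts. RAMP1 reached at most 0.383 TPM, and in the r-CRMP2 libraries ADM2 and RAMP1 overlapped in range: ADM2 was between 0.301 and 0.846 TPM. CALCRL, RAMP2 and RAMP3 could not be ordered among themselves.

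The spread between replicates differed among the genes. The SD of log2 CPM of ADM over the r-CRMP2 libraries was 0.32, larger than that of 99.8% of the 876 tested genes within 2-fold of its level, whose median was 0.08. Over the untreated libraries it was 0.17, against a median of 0.08 among 4973 genes of like level. ACKR3 was the opposite, with an SD of 0.06 in each group and medians of 0.16 and 0.11 among genes of like level. For ADM2, the SD was 0.19 in untreated and 0.63 in r-CRMP2 libraries. The genes of like level were matched on level and not on change. Among genes named below for a profile near that of ADM, the SD over the r-CRMP2 libraries varied. It was 0.26 for IER3, 0.13 for NR1D1, 0.12 for ERRFI1 and 0.30 for ANKRD37.

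Genes that make, bind or pass on the signal were read from a list of 46, of which 30 were above the low-count filter. Of these, CXCR4 was upregulated past both thresholds, ARRB1 and GRK4 were downregulated, and 27 were not past both. Among all genes tested, 5.12% were upregulated and 8.86% downregulated. Their log2 fold changes had a median of -0.13, against -0.03 for all genes tested. By adjusted p alone, 7 of the 30 were higher and 9 lower, against 28.2% and 30.1% of all genes tested. The list was written with earlier results of these data known, so the adjusted p-values of its genes are given as a description.

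CXCR4, the signaling receptor for CXCL12, had 43.9, 38.3 and 41.2 CPM in untreated and 90.2, 113 and 101 CPM in r-CRMP2 replicates 1, 2 and 3. The r-CRMP2 group was higher with no overlap, as for 30.9% of all genes tested. The log2 fold change was 1.30 (SE 0.11), with an adjusted p of 1.11e-10 in the edgeR test. Scaled by library size alone, it was 0.99, under the fold change threshold. The chemokines CXCL11 and CXCL12 had at most 3 counts in any library and were under the low-count filter, while both receptors of CXCL12 were above it.

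ARRB1, which encodes β-arrestin 1, had 45.3, 44.4 and 45.9 CPM in untreated and 20.6, 15.1 and 14.2 CPM in r-CRMP2 replicates 1, 2 and 3. All treated libraries were below all untreated ones, as for 33.3% of all genes tested. The log2 fold change was -1.44 (SE 0.17), with an adjusted p of 1.08e-09 in the edgeR test. ARRB2, for β-arrestin 2, had a log2 fold change of 0.17, which turned to -0.14 with library size alone. GRK4, a receptor kinase, had 66, 54 and 53 counts in untreated and 20, 16 and 8 counts in r-CRMP2 replicates 1, 2 and 3. Its log2 fold change was -1.65 (SE 0.39), with an adjusted p of 0.000203 in the edgeR test, at low counts. None of the other receptor kinases, GRK2, GRK3, GRK5 and GRK6, passed both thresholds.

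**Figure D3:**
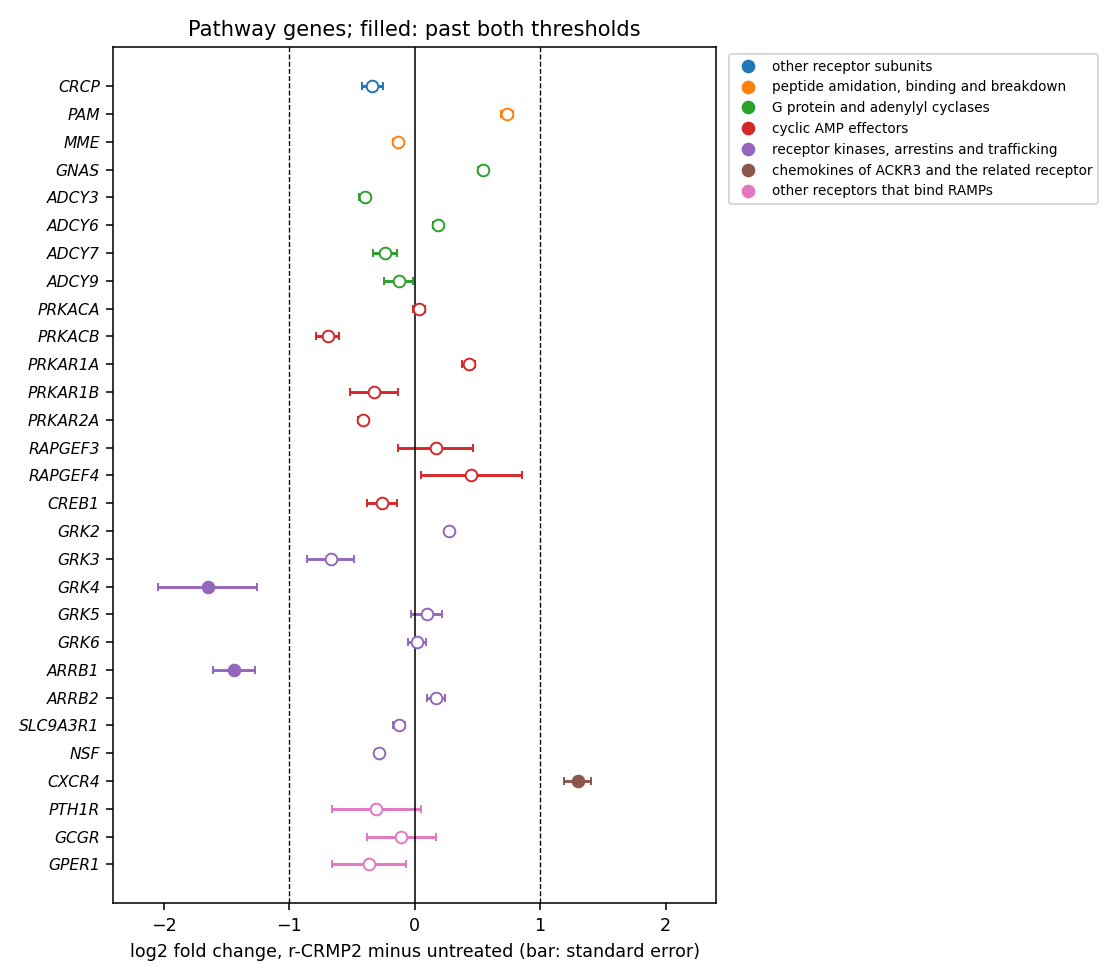
Log2 fold change (r-CRMP2 minus untreated) with its standard error for 29 of the 30 pathway genes tested, coloured by their group in the list. Filled points passed both thresholds, and dashed lines mark a log2 fold change of 1 in either direction. CXCR4 alone lies beyond the line on the right, and ARRB1 and GRK4 beyond the line on the left.

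Of the genes that make the mature peptide, PAM, which encodes the amidating enzyme, had 168 ± 5.96 CPM in untreated and 279 ± 12.1 CPM in r-CRMP2 libraries (SD, n = 3 each). It was named after its value was seen. Its log2 fold change of 0.74 (SE 0.05), with an adjusted p of 7.53e-09 in the edgeR test, was under the fold change threshold, and was 0.42 with library size alone. MME, which encodes neprilysin and breaks the peptide down, did not pass the test, with a log2 fold change of -0.13. Scaled by library size alone it was -0.44, with an adjusted p of 2.46e-05 in the edgeR test.

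The other ligands of the family, CALCA, CALCB and IAPP, had at most 3 counts in any library, and so did CALCR, the calcitonin receptor. CRCP, a small protein that aids the receptor's coupling, had a log2 fold change of -0.34. Of 7 further receptors that bind RAMP proteins, 4 were under the filter and none passed the test. Of the stimulatory G protein and the adenylyl cyclases, 5 of 10 genes were tested and none was past both thresholds. GNAS, the G protein's α subunit, had a log2 fold change of 0.54, and ADCY3 had -0.40. Of 9 cyclic AMP effectors, 8 were tested and none was past both thresholds. PRKACB, a catalytic subunit of protein kinase A, had the lowest log2 fold change of them, -0.69. Scaled by library size alone it was -1.002, with an adjusted p of 5.17e-07 in the edgeR test, and so past both thresholds. ARRB2, CRCP, GNAS, ADCY3 and PRKACB were likewise named after their values were seen. With library size alone, the 9 genes that were lower by adjusted p kept their direction, and 4 of the 7 that were higher did. That scaling moved the median of all genes tested from -0.03 to -0.34. Falls therefore tend to keep their direction under it and small rises to lose theirs, so nothing is read from these counts.

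The genes with the profile nearest to ADM were sought by the Euclidean distance of log2 CPM over the 6 libraries, each centred on its own mean, among 14130 other genes with a mean of at least 1 CPM. Among the nearest 5 were IER3, NR1D1, ERRFI1 and ANKRD37, at distances of 0.80, 0.85, 0.93 and 0.93. IER3 encodes an immediate early protein, NR1D1 the circadian repressor REV-ERBα and ERRFI1 an inhibitor of the EGF receptor. Their log2 fold changes lay between 2.98 for ERRFI1 and 4.43 for ANKRD37. The distance rests mostly on the size of the difference between the groups, since all of these genes share it. ADM was the lowest in the first r-CRMP2 library of the treated libraries, and so were all 4 of these. ANKRD37 overlaps UFSP2 by 706 bases, IER3 overlaps ENSG00000272273.1 by 394 bases and NR1D1 overlaps THRA by 1084 bases, each on the other strand, so part of their counts is uncertain.

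**Figure D4:**
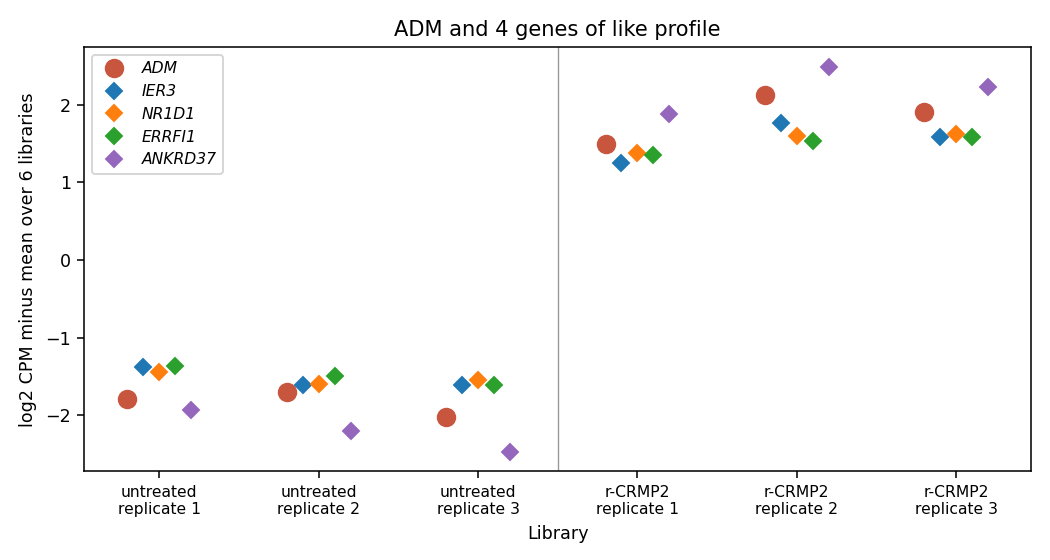
Log2 CPM minus the mean over the 6 libraries, for ADM (red circles) and 4 of the 5 genes nearest to it (diamonds), in each library. The points of a library are set side by side for legibility. All 5 genes shown lie below 0 in the untreated and above 0 in the r-CRMP2 libraries.

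The label of ovarian cancer cells was checked against 8 epithelial and ovarian markers. KRT8 and KRT18 had group means between 1251 and 1435 CPM, MUC16, EPCAM, PAX8 and KRT19 between 1.40 and 42.7 CPM, and CDH1 and WT1 were under 1 CPM in every library. The 8 markers summed to between 2545 and 2591 CPM in untreated and between 2657 and 2866 CPM in r-CRMP2 libraries. Of 6 fibroblast markers, COL1A1 had the highest level, at 419 CPM in untreated and 316 CPM in r-CRMP2 libraries on average, and FAP was under 1 CPM. The 6 summed to between 477 and 546 CPM in untreated and between 404 and 417 CPM in r-CRMP2 libraries. Of 4 leukocyte markers, 3 were under 1 CPM in every library, and the 4 summed to between 2.34 and 2.57 CPM in untreated and between 1.74 and 2.53 CPM in r-CRMP2 libraries. The part of these markers in the values above was not tested.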

How the data were processed

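RNA from 3 untreated and 3 r-CRMP2 A2780 libraries was sequenced after poly(A) selection. The authors deposited raw counts per gene, with gene length and TPM, for each library. The submitters' processing notes name hg19, FastQC, HISAT2 and DESeq2 with no role. The counting tool, the annotation and the use of strand are not given in the sources used here. TPM was recomputed from counts and lengths, and the largest gap to a deposited TPM value was 4.72e-06.

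In R 4.3.3 with edgeR 4.0.16 (on limma 3.58.1), counts passing filterByExpr were TMM-scaled and tested by quasi-likelihood, with Benjamini-Hochberg adjustment over 16222 genes and thresholds of 0.05 for the adjusted p and 1 for the log2 fold change. No covariate was used. The test was checked on simulated counts with 200 genes changed, as many up as down, and the same dispersion for every gene. That simulation held no broad shift between the groups, so it does not bear on the choice of scaling. Log2 CPM had a prior count of 2. The members and lists were chosen with earlier results of these data known. Named genes were the 7 members, pathway genes past both thresholds, the 5 genes nearest to ADM, genes overlapping a member and the markers, and genes outside this rule are said to be so or stand in a list. ADRBK1 and ADRBK2 were matched to GRK2 and GRK3 through RefSeq synonyms. Replicate libraries of a group differed by more than sampling noise (chi-square of 3.62 to 10.3 per degree of freedom), so none was counted as a duplicate. Same-numbered libraries showed no shared deviation across all genes. Promoters came from RefSeq (GRCh38.p14). Alternatives were RLE factors, library size alone, DESeq2 (1.42.0), other low-count filters, adjusted p alone, a replicate block, and leaving out each library in turn. No protein table was used here. A gene of the pathway list and a gene near ADM are not reported here, though the counts include them.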

Additional observations from a re-analysis of the deposited data

How the results depend on the processing

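The log2 fold changes of ADM (3.70), ADM2 (-2.09) and ACKR3 (2.15) kept their direction and stayed past both thresholds in all 12 alternative fits. With 1 library left out at a time, ADM lay between 3.56 and 3.86, ADM2 between -2.47 and -1.82 and ACKR3 between 2.12 and 2.19. In the other fits ADM lay between 3.38 and 3.72, ADM2 between -2.39 and -2.07 and ACKR3 between 1.84 and 2.17. The genes were chosen for this contrast, so this says nothing about chance.

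Library size alone shifted the median log2 fold change of all genes from -0.03 to -0.34. Under it 489 genes were called up and 2553 down, in place of 831 and 1437, 0 pathway genes were called up and 3 down in place of 2, PRKACB being the one gained, and the median of the pathway genes was -0.44. By adjusted p alone, 4574 genes were higher and 4875 lower, and 7 and 9 of the pathway genes. With at least 10 counts in every library, 946 genes were called down and 1 of the pathway genes, since GRK4 was no longer tested. Leaving out 1 library gave between 803 and 927 genes up and between 1386 and 1621 down. It gave 1 pathway gene up and 2 to 3 down, with a pathway median between -0.14 and -0.12. The 3 down came without the second r-CRMP2 library. The gene gained there was not PRKACB and was not among the 30 pathway genes tested in the fit of all 6 libraries.

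A replicate block in the model gave 819 genes up and 1437 down (809 and 1409 of them also called without the block), and ADM, ADM2 and ACKR3 were at 3.68, -2.11 and 2.15. No call on these genes or the pathway list changed. The deviations of same-numbered libraries had correlations of -0.02, 0.0038 and -0.03 across genes, so no shared deviation was seen over all genes. Whether same-numbered libraries are paired in a part of the genes was not tested. The ratio of ADM to ACKR3 was 7.73 in untreated and 22.4 in r-CRMP2 libraries per length, and 5.84 and 17.1 without length. It ranged from 7.46 to 8.03 and from 20.5 to 24.5 when 1 library of the group was left out. None of the 5 genes nearest to ADM was among the 5 with the highest Pearson correlation. The levels of CALCRL and the RAMP genes without the third r-CRMP2 library were added after seeing the data, and they stayed within the counting intervals over all 6 libraries except that of RAMP2, which went to 0. These genes entered no filtered fit, and the counts limit what can be said of them.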

Other observations

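Among the 831 genes upregulated past both thresholds, the first r-CRMP2 library had the lowest CPM of the treated libraries in 514 (61.9%), and among the 1437 downregulated genes it had the highest in 760 (52.9%). Over all 16222 genes tested, it was the lowest in 33.7% and the highest in 34.7%. ADM and ADM2 both followed this order, with the smallest difference from untreated cells in the first r-CRMP2 library (275 CPM for ADM and 1.69 CPM for ADM2). ACKR3 was also lowest in that library, at 19.99 CPM. The cause was not tested.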
